A study of Mus musculus with 9 samples.

Results

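The potassium, sodium and calcium channel genes described here are the 134 genes of the expression table whose symbol begins with Kcn, with Scn and a digit, or with Cacna, Cacnb or Cacng, out of 21356 named genes. Of 138 matching rows, 0 were pseudogene or antisense rows, and for the 4 symbols with more than 1 row the row with the highest values was kept. The members comprise 94 potassium, 14 sodium and 26 calcium channel genes, auxiliary subunits included. The values come from poly-A selected RNA of midbrain tissue dissected from C57BL/6 mouse fetuses at E13.5, with 3 libraries for each of 3 genotypes. The floxed control was Gpr161f/f without Cre, the Cre control was Gpr161f/+;Wnt1-Cre with 1 floxed allele, and the cKO was Gpr161f/f;Wnt1-Cre, so every fetus carried at least 1 floxed allele and the Cre control and the cKO shared the transgene. Gpr161 is a receptor of the primary cilium that restrains hedgehog signaling. Wnt1-Cre acts in the dorsal neuroectoderm of the midbrain and in the neural crest, not in every cell of the dissected tissue, and the transgene itself is known to express ectopic Wnt1, which the Cre control carries too. The litters of the fetuses are not given in the sources used here, so the p-values measure the spread between these libraries.

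Voltage-gated sodium channels open on depolarization and carry the rising phase of the action potential, voltage-gated potassium channels end it, and voltage-gated calcium channels turn it into calcium entry for release, growth and transcription. Inward rectifier and 2-pore-domain potassium channels are open near rest and set the resting potential, also in glia, vessels and epithelia. In the embryonic midbrain many of these genes come on as newborn neurons leave the ventricular zone and differentiate.

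Values are given on the log2 scale of the table. The table shrinks low values toward each other, so differences of low genes are understated. Of the 134 channel genes, 100 passed the filter on low values (1 cpm or more on the linear scale in 3 or more libraries) and were tested, namely 70 potassium, 9 sodium and 21 calcium channel genes. The 34 others had means of at most 4.71 and were not tested. They include Scn4a and Cacna1s of skeletal muscle, Scn10a and Scn11a of sensory neurons, and Kcna10, which was listed at 0 in all 9 libraries. A gene was called changed at an adjusted p under 0.05 in limma's moderated test, with Benjamini-Hochberg adjustment over all 14029 genes tested. The fold rule asked in addition for a fold change over 1.5.

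The genotype labels could not be checked on the targeted gene. Gpr161 was 11.80, 11.74 and 11.78 in the floxed control, 11.77, 11.91 and 11.96 in the Cre control and 11.74, 11.95 and 11.94 in cKO, and its log2 difference was 0.11 (adjusted p = 0.223) against the floxed control and 3e-04 (adjusted p = 0.998) against the Cre control by limma. The value sums the transcripts of the gene, and the exons lost from the floxed allele are not given in the sources used here, so every direction below rests on the genotypes as labelled. All 8 neuron markers and all 8 progenitor markers had mean log2 values of 10.52 or more in the tissue. The table has no read counts, so sequencing depth cannot be given. Over the 100 channel genes, the median distance of a library from the others of its genotype was between 0.066 and 0.13 on the log2 scale, highest in Cre control replicate 1 and cKO replicate 1.

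Against the floxed control, 62 of the 100 tested channel genes fell in cKO and 2 rose. Over all genes tested, 18.8% fell and 19.5% rose at the same threshold. The median log2 difference of the tested channel genes was -0.25, against 0.01 over all genes. For 70 channel genes every cKO library lay below every floxed control library, as it did for 27.3% of all genes. With the fold rule 14 channel genes fell, against 1.58% of all genes, and 0 rose. The count of lower genes was between 44 and 67 when single libraries were left out. The count of higher genes was 1 without floxed control replicate 1 or 3 or without cKO replicate 1 or 2. Shares of all genes under these omissions are not given here.

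Against the Cre control, 25 of the 100 fell and 1 rose, where 4.85% and 4.86% of all genes did. The median log2 difference was -0.15, against 0.01 over all genes, and for 43 channel genes every cKO library lay below every Cre control library, as for 13.7% of all genes. Only Kcnk9 passed the fold rule, against 0.228% of all genes. This count leaned on single libraries: it was 39 when Cre control replicate 1 was left out, 16 without floxed control replicate 1 or 3, 7 when Cre control replicate 2 was omitted, 12 without cKO replicate 2, and 3 when either Cre control replicate 3 or cKO replicate 1 was omitted. It was 9 with only the 6 libraries compared. Of 22 named channel genes called here, only Kcna4 and Cacna1e kept the call under every alternative, so each other call below is given with the libraries whose single omission ended it, named by genotype and replicate (floxed 1, Cre 2, cKO 3), and the adjusted p then reached. The 1 higher gene was called only when all libraries were kept or when Cre control replicate 1 or cKO replicate 1 was the one left out. The channel genes that fell against both controls, by the call in each, are given below with both values, and both comparisons use the same cKO libraries.

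Between the controls, 0 of the 100 channel genes were called by limma in either direction, as for nearly all genes (0.00713% lower and 0.0499% higher in the Cre control). At an unadjusted p under 0.05 there were 27 lower and 1 higher channel genes, among 2451 genes of either direction in all. Every Cre control library lay below every floxed control library for 30 channel genes, as for 12.1% of all genes, and the median log2 difference was -0.11, against 0.00 over all genes. Without floxed control replicate 1, 1 channel gene was lower.

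Promoter windows were read for 3 short motifs, since many members fell together. RefSeq windows on GRCm38.p6, 250 bases before to 50 after a start, were found for 99 of the 134 members, 135 windows in all. The E-box CAGCTG, which proneural bHLH factors can bind, was present on either strand in 37 windows of 30 members, 27.4%, against 16.3% of all 32851 windows. Windows of the same gene can overlap and were each counted. The E-box was also in windows of tested members called against neither control, among them Cacna1c and Kcnk2. Whether it goes with the fall was not tested, and the windows printed below come only from genes that fell. The Gli motif GACCACCCA was in 2 member windows, 1.48% against 0.253%, those of Cacnb4 and Scn4a. TTCAGCACC, the left part of the RE1 element bound by Rest, was in 1 window, 0.741% against 0.371%. The motifs do not overlap each other in their letters, and a match describes the letters only.

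The windows of 3 genes that fell against both controls, each described with its values further on, and that hold the E-box are shown because they differ in where it sits. Each is given 5′ to 3′ on the strand of the gene, with the match in capitals. The Kcna2 window is chr3:107101317-107101616 on the plus strand, with the match starting at -201 from the start site. The Kcnj3 window is chr2:55435720-55436019 on the plus strand, with the match at -65, and the Cacna1b window is chr2:24763103-24763402 on the minus strand, with the match at -8.
Kcna2: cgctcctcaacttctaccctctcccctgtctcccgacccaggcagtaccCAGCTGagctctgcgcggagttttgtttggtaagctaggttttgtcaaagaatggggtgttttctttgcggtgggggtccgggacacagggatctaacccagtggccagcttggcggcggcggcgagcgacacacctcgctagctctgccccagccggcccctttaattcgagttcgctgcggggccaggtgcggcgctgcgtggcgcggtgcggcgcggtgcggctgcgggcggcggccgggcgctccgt
Kcnj3: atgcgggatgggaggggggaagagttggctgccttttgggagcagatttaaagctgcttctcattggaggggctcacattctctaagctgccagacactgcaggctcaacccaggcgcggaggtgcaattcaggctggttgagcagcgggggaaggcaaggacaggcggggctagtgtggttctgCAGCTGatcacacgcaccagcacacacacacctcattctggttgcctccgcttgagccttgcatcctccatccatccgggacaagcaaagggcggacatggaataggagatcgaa
Cacna1b: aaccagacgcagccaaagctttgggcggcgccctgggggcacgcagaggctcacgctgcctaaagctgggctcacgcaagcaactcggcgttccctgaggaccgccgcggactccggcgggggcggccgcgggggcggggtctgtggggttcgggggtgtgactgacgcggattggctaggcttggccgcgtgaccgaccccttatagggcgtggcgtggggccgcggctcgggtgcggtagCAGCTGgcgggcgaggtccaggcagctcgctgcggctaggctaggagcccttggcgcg

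The Cacnb4 window is the 1 member window with a Gli motif whose gene was tested, and it was chosen after its values were seen. It is chr2:52675810-52676109 on the minus strand, with the match in capitals starting at -149, and Cacnb4 fell against both controls, with the values given further on.
Cacnb4: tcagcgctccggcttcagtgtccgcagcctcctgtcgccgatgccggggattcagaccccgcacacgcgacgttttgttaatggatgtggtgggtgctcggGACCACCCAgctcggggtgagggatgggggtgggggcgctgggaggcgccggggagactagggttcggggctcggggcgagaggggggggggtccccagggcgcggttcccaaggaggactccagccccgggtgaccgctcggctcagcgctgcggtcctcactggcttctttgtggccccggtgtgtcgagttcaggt

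**Figure D1:**
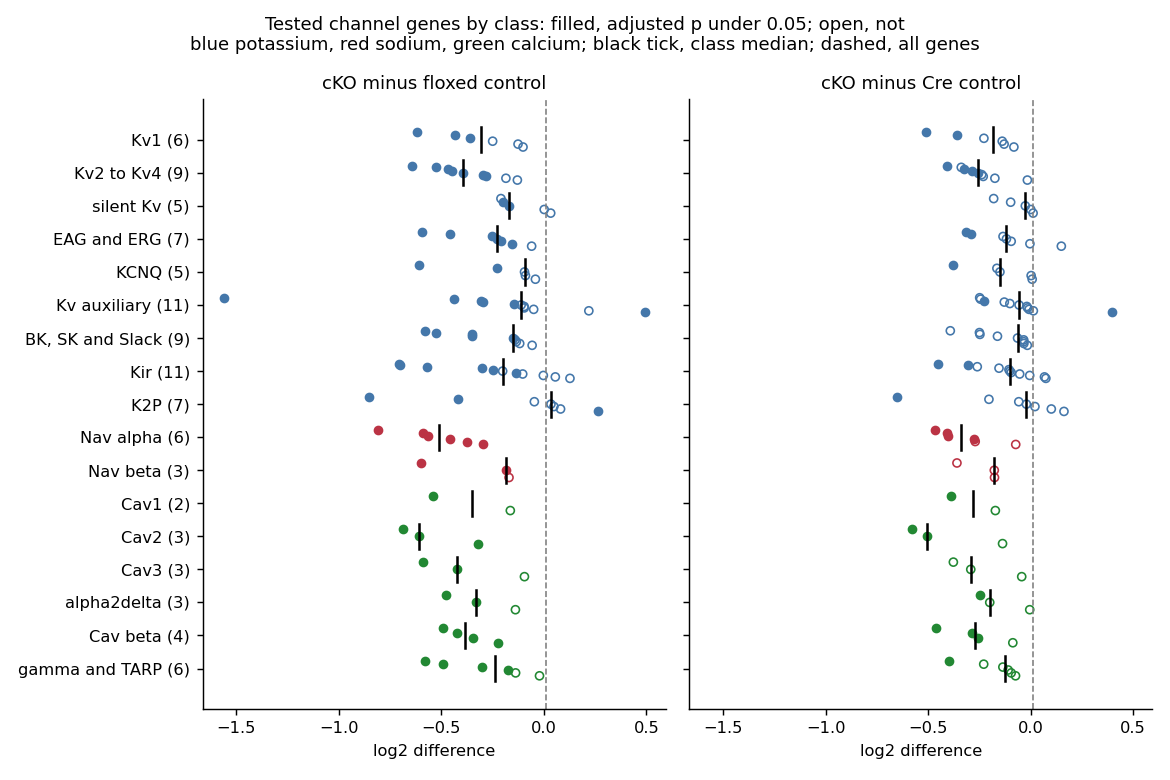
Log2 differences of the 100 tested channel genes, cKO minus floxed control on the left and cKO minus Cre control on the right, by channel class with the number tested in brackets. Filled points passed an adjusted p of 0.05, black ticks are class medians and the dashed line is the median of all genes tested. The 6 sodium channel alpha subunits, 3 Cav2 genes and 4 Cav beta genes are all filled on the left, while the K2P median lies at 0.03.

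Of the 9 tested sodium channel genes, 8 fell against the floxed and 4 against the Cre control, with medians of -0.46 and -0.28. All 6 tested alpha subunits, which form the pore, fell against the floxed control with a median of -0.51, and 4 of the 6 fell against the Cre control with a median of -0.34. Scn2a encodes Nav1.2, an early channel of the axon initial segment. It was 10.08, 9.98 and 10.02 in the floxed control, 9.72, 9.82 and 9.99 in the Cre control and 9.36, 9.51 and 9.42 in cKO. The cKO libraries lay below all 6 control libraries, with a limma log2 difference of -0.59 (SE 0.070, adjusted p = 0.000516) against the floxed and -0.41 (SE 0.070, adjusted p = 0.0124) against the Cre control, where the call was lost without cKO 1 (adjusted p = 0.0522). Scn3a, which encodes the embryonic channel Nav1.3, had the highest value per kilobase of the alpha subunits, 266 on the linear scale per kilobase of its longest coding transcript, against 97.5 for Scn2a and 78 for Scn8a. Scn3a was 11.64, 11.48 and 11.54 in the floxed control, 11.20, 11.42 and 11.56 in the Cre control and 10.98, 11.04 and 10.95 in cKO. It fell by limma with -0.56 (SE 0.081, adjusted p = 0.00103) against the floxed and -0.40 (SE 0.081, adjusted p = 0.0195) against the Cre control, the latter call lost without Cre 2, Cre 3, cKO 1 or cKO 3 (adjusted p up to 0.0737), with the cKO libraries below all control libraries.

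Scn8a, which encodes Nav1.6 of mature initial segments and nodes, was 10.04, 9.85 and 9.82 in the floxed control, 9.88, 9.94 and 9.84 in the Cre control and 9.54, 9.62 and 9.67 in cKO. The 2 sets of controls overlapped and all cKO libraries lay below them, and limma gave -0.30 (adjusted p = 0.00533) and -0.28 (adjusted p = 0.0286) against the floxed and the Cre control, the latter lost without Cre 2, Cre 3, cKO 1 or cKO 2 (adjusted p up to 0.115). Scn9a encodes Nav1.7, best known from sensory and sympathetic neurons, and was 8.80, 9.001 and 9.15 in the floxed control, 8.47, 8.74 and 8.71 in the Cre control and 7.999, 8.26 and 8.25 in cKO. Its limma log2 differences were -0.81 (SE 0.108, adjusted p = 0.000757) against the floxed control, where cKO stood at 57% of the control on the linear scale, and -0.47 (adjusted p = 0.0297) against the Cre control, where the call was lost without Cre 2, Cre 3, cKO 1 or cKO 2 (adjusted p up to 0.115). Markers of sensory neurons moved with it against the floxed control: 3 of the 4 listed fell there, 0 of 4 against the Cre control, and the summed log2 level of the list was 9.54 to 10.32 in the floxed control, 9.42 to 9.67 in the Cre control and 9.11 to 9.39 in cKO, with none at 0. Prph was 8.15, 8.67 and 8.998 in the floxed control, 8.03, 7.92 and 7.81 in the Cre control and 7.67, 7.86 and 7.79 in cKO, and the part of these cells in the Scn9a result was not tested. Scn10a, a defining channel of such neurons that was too low to test, was 3.95, 4.53 and 4.75 in the floxed control, 4.01, 3.97 and 4.01 in the Cre control and 3.98, 4.04 and 3.95 in cKO, with only floxed control replicates 2 and 3 above 4.5.

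The alpha subunit genes of chromosome 2 sit next to each other. On GRCm38, in the GENCODE annotation, Scn3a (chr2:65457118-65567627) and Scn2a (chr2:65620771-65767447) span 310.3 kb, and Scn1a (chr2:66270778-66440840), Scn9a (chr2:66480080-66634962) and Scn7a (chr2:66673425-66784914) span 514.1 kb. All 5 fell against the floxed and 3 of them against the Cre control. Scn1a and Scn7a are named for this position, after their values were seen. The 2 runs given are among 22 in which members lie at most 500 kb from the next. Other runs differed: in 1 on chromosome 6 (chr6:126532551-126740674), 0 of 3 tested members fell against either control. Scn1a, which encodes Nav1.1, had limma log2 differences of -0.46 (adjusted p = 0.00199) and -0.27 (adjusted p = 0.0535), and Scn7a, the sodium-sensing channel Nax, had -0.38 (adjusted p = 0.00663) and -0.07 (adjusted p = 0.591). Of the 3 tested beta subunits, which steer gating and surface expression of the pore, 2 fell against the floxed and 0 against the Cre control. Scn3b was 11.59, 11.52 and 11.64 in the floxed control, 11.09, 11.41 and 11.55 in the Cre control and 10.66, 11.09 and 11.22 in cKO, with limma log2 differences of -0.60 (SE 0.142, adjusted p = 0.00887) and -0.36 (SE 0.142, adjusted p = 0.127). Its cKO libraries overlapped the Cre control, where replicate 1 was level with cKO replicate 2 at 11.09. Scn2b was near the threshold against the floxed control, with -0.18 (adjusted p = 0.0403) in limma, a call lost without any single library except floxed 3, Cre 1 and cKO 1 (adjusted p up to 0.145).

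**Figure D2:**
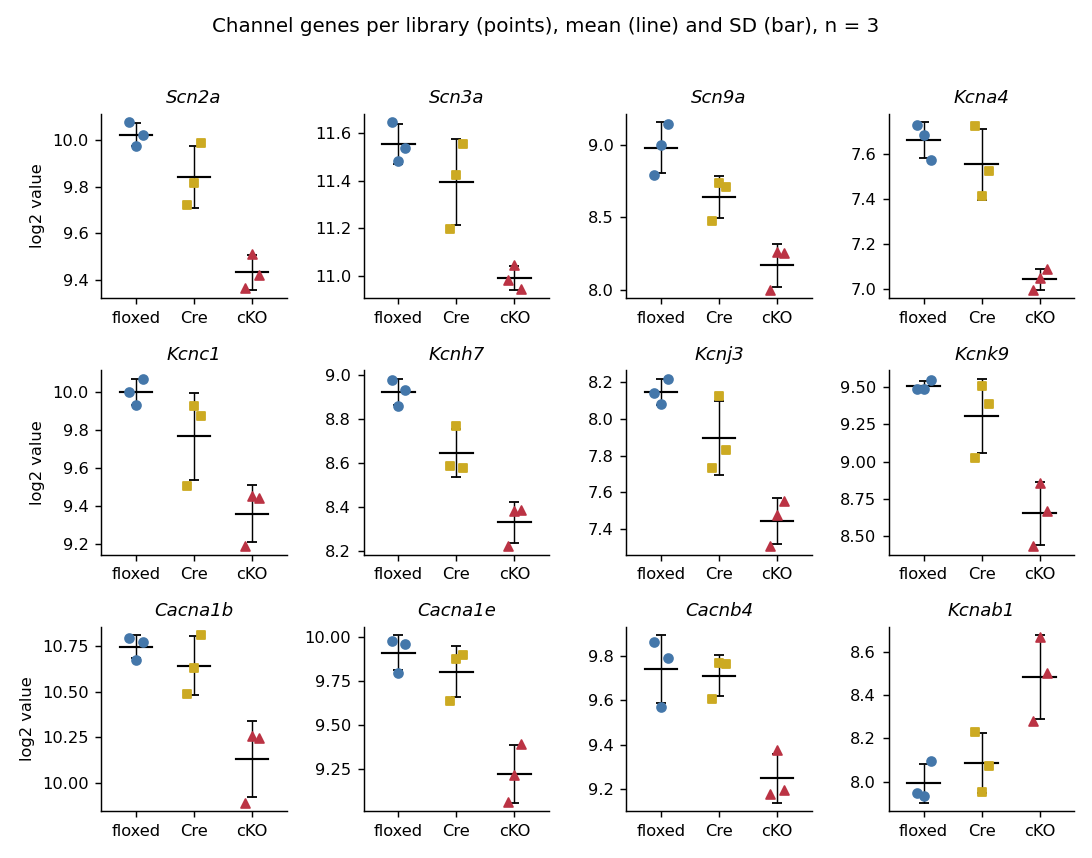
Log2 values of 12 channel genes in each of the 9 libraries, with the mean and SD of each genotype (n = 3). In 11 panels the cKO libraries lie low, in Scn2a at 9.36 to 9.51 against 9.72 to 10.08 in the controls, and in the Kcnab1 panel they lie high at 8.28 to 8.67.

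The calcium channel genes fell in 16 of 21 tested cases against the floxed and in 8 against the Cre control, with 0 higher and medians of -0.35 and -0.23. The Cav2 pore subunits carry the calcium entry that triggers transmitter release, and all 3 fell against the floxed control with a median of -0.61. Cacna1b, the N-type channel, was 10.79, 10.67 and 10.77 in the floxed control, 10.48, 10.63 and 10.81 in the Cre control and 9.89, 10.25 and 10.25 in cKO. Its limma log2 differences were -0.61 (SE 0.103, adjusted p = 0.00198) and -0.51 (SE 0.103, adjusted p = 0.0204) against the floxed and the Cre control, and the cKO libraries stood below both sets of controls. The call against the Cre control was lost without Cre 2, Cre 3 or cKO 1 (adjusted p up to 0.0735). Cacna1e, the R-type channel, was 9.98, 9.80 and 9.96 in the floxed control, 9.64, 9.88 and 9.90 in the Cre control and 9.06, 9.22 and 9.39 in cKO. It fell with -0.69 (SE 0.095, adjusted p = 0.000889) and -0.58 (SE 0.095, adjusted p = 0.0109) in limma, to 62.1% and 67% of the controls on the linear scale. With Kcna4 it is 1 of the 2 named channel genes whose call against the Cre control held under all alternatives run on named genes, the omission of each library included. Cacna1a, the P/Q-type channel, differed by -0.32 (adjusted p = 0.0114) against the floxed and -0.14 (adjusted p = 0.276) against the Cre control.

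Among the L-type channels, which couple calcium entry to transcription, only Cacna1c and Cacna1d were tested. Cacna1d encodes Cav1.3, which opens at lower voltages, and was 8.79, 8.59 and 8.65 in the floxed control, 8.51, 8.64 and 8.43 in the Cre control and 8.02, 8.27 and 8.11 in cKO. It fell against both controls, by -0.54 (SE 0.084, adjusted p = 0.00137) and -0.39 (SE 0.084, adjusted p = 0.0241) in limma, with no overlap. Against the Cre control the call was lost without Cre 2, Cre 3, cKO 1 or cKO 3 (adjusted p up to 0.0987). Cacna1c, Cav1.2, had the higher linear value per kilobase of the pair, 57 against 40.1, and did not pass, with limma log2 differences of -0.16 (adjusted p = 0.224) and -0.17 (adjusted p = 0.278). The T-type channels open near the resting potential. Cacna1g was 11.67, 11.66 and 11.55 in the floxed control, 11.57, 11.61 and 11.55 in the Cre control and 11.45, 11.63 and 11.51 in cKO, with groups that overlapped and limma log2 differences of -0.10 (adjusted p = 0.175) (95% interval -0.21 to 0.02) and -0.04 (adjusted p = 0.604). Its family member Cacna1h fell against the floxed control with -0.42 (adjusted p = 0.00937), and Cacna1i with -0.59 (adjusted p = 0.0106), while both missed the threshold against the Cre control with -0.29 (adjusted p = 0.0923) and -0.38 (adjusted p = 0.121).

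The beta subunits bring the calcium channel pore to the membrane, and all 4 fell against the floxed and 3 against the Cre control. Cacnb3 had the highest value per kilobase of any pore or beta gene of the calcium channels, 1330 on the linear scale. It was 12.01, 11.90 and 11.99 in the floxed control, 11.84, 11.87 and 11.94 in the Cre control and 11.47, 11.66 and 11.74 in cKO, with limma log2 differences of -0.35 (SE 0.065, adjusted p = 0.00312) and -0.26 (SE 0.065, adjusted p = 0.0391), the latter lost without any single library except floxed 2, Cre 1 and cKO 3 (adjusted p up to 0.125). Cacnb4 was 9.86, 9.57 and 9.79 in the floxed control, 9.60, 9.77 and 9.76 in the Cre control and 9.18, 9.38 and 9.20 in cKO. Here the 2 sets of controls overlapped and cKO lay below both, with -0.49 (SE 0.085, adjusted p = 0.00212) and -0.46 (SE 0.085, adjusted p = 0.0152) in limma, the second of these lost without Cre 3 or cKO 1 (adjusted p up to 0.0635). Cacnb1 fell with -0.43 (adjusted p = 0.00202) and -0.29 (adjusted p = 0.0379), the latter lost without any single library except Cre 1 and cKO 3 (adjusted p up to 0.125).

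Of the alpha2delta subunits, the gabapentin-binding partners of the pore, 2 of 3 tested fell against the floxed and 1 against the Cre control. Cacna2d1 differed by -0.33 (adjusted p = 0.00419) and -0.25 (adjusted p = 0.0452) in limma, and its call against the Cre control was lost without any single library except Cre 1 (adjusted p up to 0.169). Cacna2d2 differed by -0.48 (adjusted p = 0.00144) and -0.20 (adjusted p = 0.111). The gamma group consists mostly of TARPs, which are partners of AMPA receptors rather than of calcium channels. In it 4 of 6 tested genes fell against the floxed and 1 against the Cre control. That gene, Cacng2 (stargazin), was 10.20, 10.10 and 10.16 in the floxed control, 9.83, 10.04 and 10.04 in the Cre control and 9.39, 9.62 and 9.70 in cKO, with limma log2 differences of -0.58 (SE 0.084, adjusted p = 0.00105) and -0.40 (SE 0.084, adjusted p = 0.0226) and no overlap, though the call against the Cre control was lost without Cre 2, Cre 3, cKO 1 or cKO 2 (adjusted p up to 0.0831). Cacng4 had the highest value per kilobase of all 134 members, 2470 on the linear scale, and did not pass. It was 13.14, 13.11 and 13.15 in the floxed control, 13.15, 13.06 and 13.07 in the Cre control and 12.86, 13.04 and 13.09 in cKO, with -0.14 (adjusted p = 0.0828) (95% interval -0.27 to -0.01) and -0.10 (adjusted p = 0.292) in limma. Cacng7, the third in that order with 691 per kilobase, fell slightly against the floxed control, with -0.18 (adjusted p = 0.0135), a call lost without floxed 3 or cKO 1 (adjusted p up to 0.0585).

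Potassium channel genes fell in 38 of 70 tested cases against the floxed and rose in 2, and against the Cre control they fell in 13 and rose in 1. Their medians were -0.20 and -0.11. In the Kv1 class, delayed rectifier and A-type channels of axons, 3 of 6 fell against the floxed and 2 against the Cre control. Kcna4, the A-type channel Kv1.4, was 7.73, 7.68 and 7.58 in the floxed control, 7.72, 7.42 and 7.52 in the Cre control and 6.996, 7.05 and 7.09 in cKO. The 2 sets of controls overlapped and cKO lay well below both, with limma log2 differences of -0.62 (SE 0.080, adjusted p = 0.000691) and -0.51 (SE 0.080, adjusted p = 0.00896). Kcna2, the axonal channel Kv1.2, was 8.94, 8.91 and 8.92 in the floxed control, 8.88, 8.79 and 8.88 in the Cre control and 8.37, 8.61 and 8.48 in cKO. It fell with -0.43 (SE 0.065, adjusted p = 0.00119) and -0.36 (SE 0.065, adjusted p = 0.0138), the latter lost without Cre 3 (adjusted p = 0.0548). Kcna6 did not pass, with -0.25 (adjusted p = 0.0998) and -0.13 (adjusted p = 0.463).

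The Kv2 to Kv4 class had 7 of 9 genes lower against the floxed and 4 against the Cre control, with medians of -0.40 and -0.26. Kcnc1 encodes Kv3.1, which lets neurons fire fast, and was 10.002, 9.94 and 10.07 in the floxed control, 9.50, 9.93 and 9.88 in the Cre control and 9.19, 9.45 and 9.44 in cKO. Its limma log2 differences were -0.64 (SE 0.109, adjusted p = 0.00203) and -0.41 (SE 0.109, adjusted p = 0.0454), with cKO replicates 2 and 3 just below Cre control replicate 1. Its call against the Cre control was lost without any single library except Cre 1 (adjusted p up to 0.168). Kcnd3, the A-type channel Kv4.3 with the highest linear value per kilobase of the class (233), differed in log2 value by -0.30 (adjusted p = 0.0312) and -0.24 (adjusted p = 0.127), and the call against the floxed control was lost without floxed 1, floxed 2, floxed 3 or cKO 1 (adjusted p up to 0.0979). The silent Kv subunits, which form channels only with Kv2, had 2 of 5 lower against the floxed and 0 against the Cre control. The 2 with the highest linear values per kilobase in the class, Kcnf1 (32.4) and Kcng1 (22.8), did not pass, with -0.21 (adjusted p = 0.0983) and 0.00 (adjusted p = 0.988) against the floxed control.

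The EAG and ERG class, whose ERG members damp repeated firing, fell in 6 of 7 cases against the floxed and in 2 against the Cre control. Kcnh7, ERG3, was 8.98, 8.86 and 8.93 in the floxed control, 8.59, 8.77 and 8.58 in the Cre control and 8.22, 8.38 and 8.39 in cKO. It fell with -0.59 (SE 0.071, adjusted p = 0.000535) and -0.31 (SE 0.071, adjusted p = 0.0276) in limma and no overlap, the latter call lost without Cre 2, Cre 3, cKO 1 or cKO 2 (adjusted p up to 0.107). Kcnh4, of the ELK branch, was 8.56, 8.41 and 8.49 in the floxed control, 8.28, 8.38 and 8.31 in the Cre control and 8.04, 8.05 and 8.01 in cKO, with -0.46 (SE 0.055, adjusted p = 0.000574) and -0.29 (SE 0.055, adjusted p = 0.0171), the latter lost without Cre 2, Cre 3 or cKO 1 (adjusted p up to 0.0574). Kcnh2, ERG1, had the highest linear value per kilobase in the class (243), and its log2 value was 10.07, 10.002 and 10.20 in the floxed control, 9.81, 9.97 and 9.87 in the Cre control and 10.11, 9.93 and 10.05 in cKO. Its groups overlapped, and the differences were -0.06 (adjusted p = 0.51) and 0.15 (adjusted p = 0.174).

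The KCNQ class holds the M-current channels, and its member Kcnq3 differed by -0.23 (adjusted p = 0.0167) and -0.15 (adjusted p = 0.144) in limma, with the call against the floxed control lost without floxed 1, floxed 3, cKO 1 or cKO 3 (adjusted p up to 0.0658). Among calcium- and sodium-activated channels, 5 of 9 fell against the floxed and 0 against the Cre control. Kcnma1, the BK pore, differed by -0.58 (adjusted p = 0.00449) and -0.39 (adjusted p = 0.0635), and Kcnmb4, its neuronal beta subunit, by -0.15 (adjusted p = 0.0453) and -0.02 (adjusted p = 0.858). The Kcnmb4 call against the floxed control was lost without any single library except Cre 1 and cKO 3 (adjusted p up to 0.16) and with the replicate block.

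Inward rectifiers fell in 6 of 11 cases against the floxed and in 2 against the Cre control. Kcnj3, the GIRK1 subunit opened by G proteins, was 8.14, 8.08 and 8.22 in the floxed control, 7.73, 8.12 and 7.83 in the Cre control and 7.31, 7.48 and 7.55 in cKO. It fell with limma log2 differences of -0.70 (SE 0.10, adjusted p = 0.00103) and -0.45 (SE 0.10, adjusted p = 0.0266), with cKO below every control library. The call against the Cre control was lost without Cre 2, Cre 3, cKO 1 or cKO 2 (adjusted p up to 0.107). Kcnj12, Kir2.2, was 6.37, 6.53 and 6.58 in the floxed control, 6.11, 6.35 and 6.23 in the Cre control and 5.90, 5.94 and 5.92 in cKO, with -0.57 (SE 0.074, adjusted p = 0.000702) and -0.31 (SE 0.074, adjusted p = 0.0337), the latter lost without Cre 2, Cre 3, cKO 1, cKO 2 or cKO 3 (adjusted p up to 0.121). Kcnj10, the glial channel Kir4.1, and Kcnj8, the Kir6.1 pore of vascular K-ATP channels, had the highest linear values per kilobase of the class (66.1 and 106) and did not pass. Kcnj10 differed by -0.10 (adjusted p = 0.286) and 0.07 (adjusted p = 0.571), and Kcnj8 by 0.13 (adjusted p = 0.188) and 0.07 (adjusted p = 0.524). Of the 4 pericyte markers, with which Kcnj8 is often seen, only Notch3 rose, by 0.25 (adjusted p = 0.004) and 0.22 (adjusted p = 0.0294) in limma. The latter call was lost without floxed 3, Cre 2, Cre 3, cKO 1 or cKO 2 (adjusted p up to 0.107). The mean log2 value of Notch3 was 12.08, against 9.06 to 10.71 for Pdgfrb, Rgs5 and Abcc9. Which cells carried the Notch3 rise was not tested.

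The K2P leak channels had a median log2 difference of 0.03 against the floxed control, with 2 of 7 lower and 1 higher, and of -0.02 against the Cre control, with 1 lower. Kcnk9, TASK-3, had the largest fall of any member that passed against both controls. It was 9.49, 9.49 and 9.55 in the floxed control, 9.03, 9.51 and 9.39 in the Cre control and 8.43, 8.86 and 8.67 in cKO, and limma gave -0.86 (SE 0.126, adjusted p = 0.00113) and -0.65 (SE 0.126, adjusted p = 0.0177), which left 55.3% and 63.5% of the controls on the linear scale. The call against the Cre control was lost without Cre control replicate 3 (adjusted p = 0.0681) or cKO replicate 1 (adjusted p = 0.0653), both from limma. Neither TREK channel passed in either comparison. Kcnk2, TREK-1, was 10.36, 10.35 and 10.45 in the floxed control, 10.35, 10.39 and 10.35 in the Cre control and 10.24, 10.43 and 10.36 in cKO, with limma log2 differences of -0.05 (adjusted p = 0.521) (95% interval -0.17 to 0.07) and -0.02 (adjusted p = 0.82) (95% interval -0.14 to 0.10). Kcnk10, TREK-2, differed by 0.05 (adjusted p = 0.43) (95% interval -0.05 to 0.15) and 0.10 (adjusted p = 0.181). Kcnk5, the pH-sensitive TASK-2, was 7.30, 7.34 and 7.22 in the floxed control, 7.37, 7.54 and 7.27 in the Cre control and 7.63, 7.56 and 7.48 in cKO. It rose against the floxed control with 0.26 (SE 0.077, adjusted p = 0.0219), a call lost without floxed control replicate 1 or 3 or cKO replicate 1 or 2, while the Cre control gave 0.16 (adjusted p = 0.192).

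Kcnab1 was the 1 channel gene that rose against both controls. It encodes a Kv beta subunit, a cytoplasmic partner that speeds inactivation of Kv1 channels, and was 7.95, 7.93 and 8.09 in the floxed control, 8.23, 7.95 and 8.07 in the Cre control and 8.28, 8.67 and 8.50 in cKO. All cKO libraries lay above all control libraries, with limma log2 differences of 0.49 (SE 0.103, adjusted p = 0.005) and 0.40 (SE 0.103, adjusted p = 0.041), or 141% and 132% of the controls on the linear scale. For Kcnab1 the call against the Cre control was lost without any single library except Cre 1 and cKO 1 (adjusted p up to 0.117). Its relative Kcnab2, with the higher linear value per kilobase (197 against 89.8), did not pass, with -0.11 (adjusted p = 0.186) and 0.01 (adjusted p = 0.913). In the whole class of Kv auxiliary subunits, 5 of 11 fell and 1 rose against the floxed control. Kcnip1, which binds Kv4 channels, differed by -0.44 (adjusted p = 0.0118) and -0.25 (adjusted p = 0.174), and the call against the floxed control was lost without floxed 3 (adjusted p = 0.05).

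**Figure D3:**
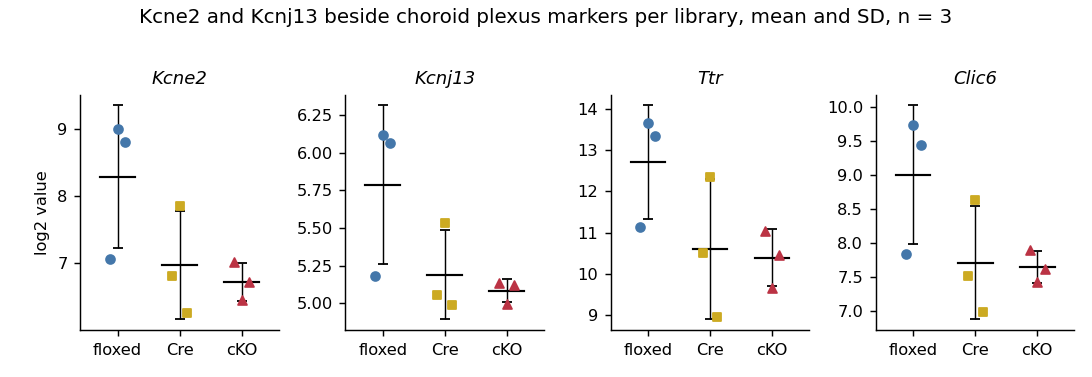
Log2 values of Kcne2, Kcnj13 and the choroid plexus markers Ttr and Clic6 in each of the 9 libraries, with mean and SD per genotype (n = 3). In all 4 panels floxed control replicates 2 and 3 and Cre control replicate 2 stand above the other libraries, for Kcne2 at 8.81 or more in the floxed pair and at 7.86 in the Cre control library.

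Kcne2 and Kcnj13 followed single libraries. Kcne2, a small beta subunit, and Kcnj13, Kir7.1, are both known from the choroid plexus epithelium. Kcne2 was 7.06, 9.001 and 8.81 in the floxed control, 6.81, 7.86 and 6.27 in the Cre control and 7.02, 6.45 and 6.72 in cKO. It had the largest difference of any member against the floxed control, -1.56 (SE 0.500, adjusted p = 0.0322) in limma, but floxed control replicate 1 stood level with cKO replicate 1. Kcnj13 was 5.18, 6.12 and 6.07 in the floxed control, 5.05, 5.53 and 4.99 in the Cre control and 5.14, 4.99 and 5.12 in cKO, and differed by -0.70 (SE 0.226, adjusted p = 0.0325). Neither passed against the Cre control, with -0.25 (adjusted p = 0.771) and -0.11 (adjusted p = 0.785). Both calls against the floxed control were lost without floxed control replicate 2 or 3 or without any 1 of the cKO libraries, at limma adjusted p between 0.0592 and 0.118. Of the 4 choroid plexus markers, Ttr and Clic6 moved with them: Ttr was 11.13, 13.65 and 13.32 in the floxed control, 10.51, 12.35 and 8.95 in the Cre control and 11.04, 9.67 and 10.46 in cKO, and Clic6 was 7.84, 9.73 and 9.44 in the floxed control, 7.52, 8.63 and 6.99 in the Cre control and 7.89, 7.42 and 7.61 in cKO. Folr1 did so only in part, with 6.91, 7.88 and 7.63 in the floxed control, 7.42, 7.45 and 7.27 in the Cre control and 7.04, 7.34 and 7.27 in cKO. Kl did not, with 6.31, 6.21 and 6.21 in the floxed control, 6.36, 6.25 and 6.27 in the Cre control and 6.25, 6.13 and 6.12 in cKO. None of the 4 markers passed in limma, Ttr with -2.32 (adjusted p = 0.0503) and Clic6 with -1.36 (adjusted p = 0.05), and their summed log2 level was 11.39 to 13.78 in the floxed control, 9.74 to 12.52 in the Cre control and 10.25 to 11.31 in cKO, with none at 0. How much choroid plexus each dissection held was not tested.

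Cell markers moved with the channel genes as a whole. The 8 neuron markers all fell against the floxed control, between -0.64 and -0.20 with a median of -0.46, and 3 of 8 fell against the Cre control, with a median of -0.26. Their summed log2 level was 16.97 to 17.08 in the floxed control, 16.65 to 16.96 in the Cre control and 16.48 to 16.64 in cKO, with none at 0. Against the Cre control, the Dcx call was lost without any single library except Cre 1, and the Stmn2 call without any except Cre 1 and cKO 3. The Snap25 call there was lost without floxed 1, Cre 2, Cre 3, cKO 1 or cKO 2 (limma adjusted p up to 0.18 for these genes). Against the floxed control, the Elavl4 call was lost without any single library except Cre 1 and Cre 3 (adjusted p up to 0.166). Of the 8 progenitor markers 7 rose against the floxed and 4 against the Cre control. Their summed log2 level was 16.51 to 16.58 in the floxed control, 16.54 to 16.68 in the Cre control and 16.76 to 16.87 in cKO. Against the Cre control, the Nes call held without any single library. The Sox2 call was lost without Cre 2 or cKO 1, the Vim call without Cre 3, cKO 1 or cKO 2, and the Ccnb1 call without any single library except Cre 1 and cKO 3 (limma adjusted p up to 0.171). Against the floxed control, the Hes5 call was lost without cKO 1 (adjusted p = 0.0593). In bulk tissue, fewer neurons and less channel RNA per neuron cannot be told apart.

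By their log2 difference from the floxed control, 7 channel genes lay below the lowest neuron marker, 51 lay within the range of the markers and 42 above it. The 7 were Kcnc1, Kcne2, Kcnj13, Kcnj3, Kcnk9, Scn9a and Cacna1e. Against the Cre control 17 lay below, 57 within and 26 above. The mean log2 value of the 100 channel genes was 8.21, 8.20 and 8.25 in the floxed control, 8.03, 8.14 and 8.12 in the Cre control and 7.86, 7.95 and 7.97 in cKO. The Cre control library with the lowest channel mean, replicate 1, also had the lowest neuron marker mean of its genotype, 12.98 against 13.22 and 13.28. Likewise cKO replicate 1 was lowest in its genotype on both.

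**Figure D4:**
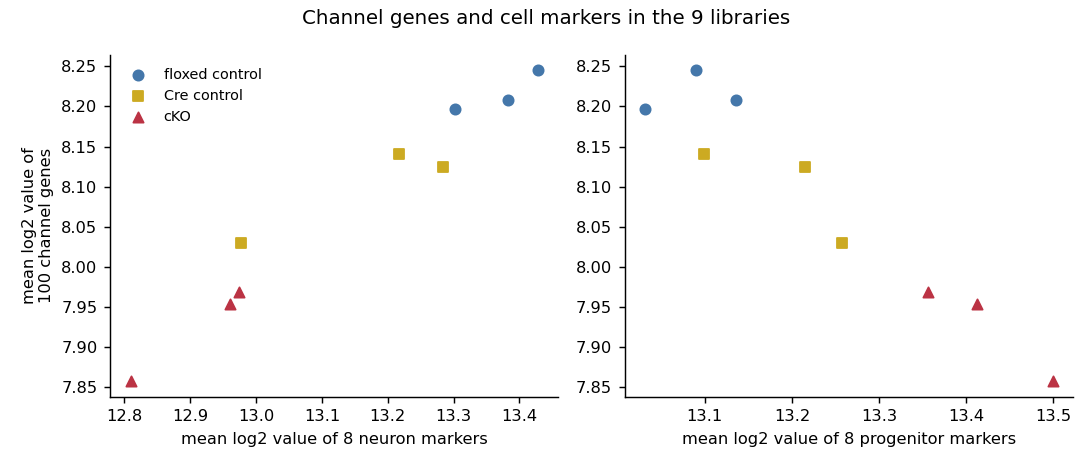
Mean log2 value of the 100 tested channel genes in each of the 9 libraries against the mean log2 value of 8 neuron markers (left) and 8 progenitor markers (right). The cKO libraries lie at 7.86 to 7.97 on the channel axis, below all control libraries, and Cre control replicate 1 at 8.03 lies between them and the rest.

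Markers of other cells also differed. All 4 erythroid markers rose against the floxed and 2 against the Cre control, and their summed log2 level was 16.38 to 17.18 in the floxed control, 16.67 to 16.85 in the Cre control and 17.11 to 18.01 in cKO. For all 4 the cKO libraries overlapped the floxed control. The floxed control call was lost for Hbb-bt without any single library except floxed 2, Cre 1 and cKO 2, and for Alas2 without floxed 1, floxed 3, cKO 1 or cKO 3. For Hba-a1 it was lost without floxed 1, cKO 1 or cKO 3, and for Hbb-y without cKO 1 (limma adjusted p up to 0.16). The Cre control calls of Hba-a1 and Hbb-y were lost without floxed 3, Cre 2, Cre 3, cKO 1 or cKO 3 (adjusted p up to 0.162). For mesenchyme 4 of 5 rose against the floxed and 0 against the Cre control, with summed log2 levels of 14.64 to 15.53 in the floxed control, 14.96 to 15.75 in the Cre control and 15.78 to 15.83 in cKO. The calls of Col1a2 and Twist1 were lost without any 1 of the cKO libraries, and that of Col1a2 also without floxed 1, floxed 3 or Cre 3 (adjusted p up to 0.166). Of the endothelial markers 1 of 4, Pecam1, rose against the floxed control, a call lost without floxed 1, floxed 3 or any 1 of the cKO libraries (adjusted p up to 0.0837). Of the microglial markers 0 of 4 were called. Of the neural crest glia markers 2 of 4 were tested and 0 called, and of the skeletal muscle markers 1 of 4 was tested and not called. The part of these cells in the channel results was not tested.

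**Figure D5:**
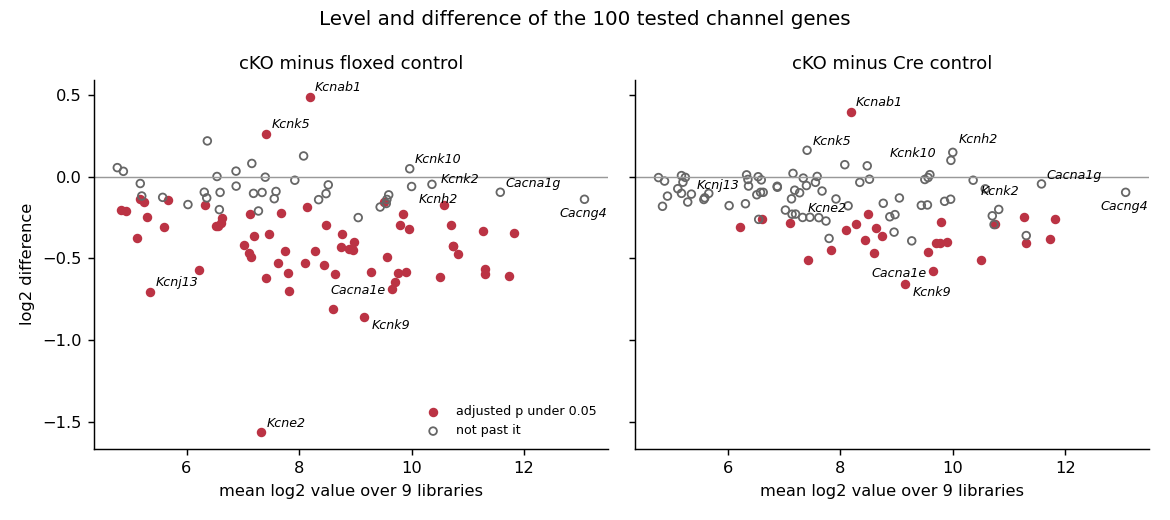
Log2 difference of the 100 tested channel genes against their mean log2 value over the 9 libraries, cKO minus floxed control on the left and cKO minus Cre control on the right, with genes past an adjusted p of 0.05 filled. On the right 20 of the 25 lower genes lie among the 50 with the higher means, where the share of all genes is not given. Kcnk2, Kcnk10, Kcnh2, Cacna1g and Cacng4 have mean values of 9.97 or more without passing.

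Calls were also counted by level, taken as the mean log2 value and not corrected for gene length. Split at the median of their mean log2 values, the 50 lower channel genes had 28 that fell against the floxed control and the 50 upper ones had 34. Against the Cre control the counts were 5 and 20. The shares of all genes called at these levels are not given here, so the split is not a trait shown for channel genes. The median log2 differences of the lower and the upper 50 were -0.20 and -0.34 with the floxed control as reference, then -0.10 and -0.24 with the Cre control, on values that the table shrinks at low levels.

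Partner genes that carry no channel symbol were taken from a list of 40, all tested. Against the floxed control 25 fell and 2 rose, with a median of -0.27, and against the Cre control 5 fell and 0 rose, with a median of -0.19. The 9 genes of the axon initial segment and juxtaparanode, where sodium and Kv1 channels are anchored, all fell against the floxed and 2 against the Cre control. The floxed control calls of Ank2 and Lgi3 were lost without floxed 3 or cKO 1, and that of Ank2 also without floxed 1 or cKO 3 (limma adjusted p up to 0.109). The Cre control call of Cntnap2 was lost without floxed 3, Cre 2, Cre 3, cKO 1 or cKO 2 (adjusted p up to 0.117). Ank3, ankyrin-G, which holds sodium channels at the initial segment, differed by -0.45 (adjusted p = 0.0172) and -0.19 (adjusted p = 0.328) in limma, with the call against the floxed control lost without floxed 1 or cKO 1 (adjusted p up to 0.0648). Cntn2, a partner of axonal Kv1 channels, differed by -0.55 (adjusted p = 0.000545) and -0.35 (adjusted p = 0.0168), the latter lost without Cre 3 (adjusted p = 0.0643).

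Dpp10, an auxiliary subunit of Kv4 channels, was 9.41, 9.25 and 9.49 in the floxed control, 9.10, 9.20 and 9.27 in the Cre control and 8.38, 8.42 and 8.64 in cKO. Its fall was larger by point estimate than that of any channel gene that passed against both controls, with limma log2 differences of -0.90 (SE 0.086, adjusted p = 0.000221) and -0.71 (SE 0.086, adjusted p = 0.0027). Fgf13, which binds the tail of sodium channels, differed by -0.65 (adjusted p = 0.00122) and -0.38 (adjusted p = 0.0399), the latter lost without floxed 1, Cre 2, Cre 3, cKO 1 or cKO 2 (adjusted p up to 0.139), and 3 of the 4 genes of its group fell against the floxed control. The 4 HCN channels, which carry the pacemaker current, all fell against the floxed control, and Hcn3 fell against the Cre control too, with -0.34 (adjusted p = 0.0423), a call lost without any single library except Cre 1 and cKO 3 (adjusted p up to 0.149). The floxed control calls of Hcn2 and Hcn4 were lost without any 1 of the floxed libraries or without cKO 1. That of Hcn2 was also lost without cKO 2 (limma adjusted p up to 0.139), and that of Hcn4 without cKO 3 (adjusted p up to 0.146).

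The other partners moved less by count. Of the sodium leak channel and its 2 partners, Unc79 fell against the floxed control and Nalcn, the pore, did not pass, with -0.08 (adjusted p = 0.402). Of 6 calcium release channels of the endoplasmic reticulum, Ryr2 fell with -0.38 (adjusted p = 0.00501) and Itpr3 rose with 0.48 (adjusted p = 0.0175) against the floxed control, the latter lost without floxed 1, floxed 3, cKO 1 or cKO 2 (adjusted p up to 0.0678). Of 7 pumps and chloride transporters 4 fell against the floxed and 0 against the Cre control. Slc12a5, the KCC2 transporter that lowers neuronal chloride, fell with -0.76 (adjusted p = 0.00785), while Slc12a2, NKCC1, did not pass with -0.01 (adjusted p = 0.889). Of 4 genes of RE1 silencing, which keeps channel genes off outside neurons, Rcor2 rose against the floxed control with 0.24 (adjusted p = 0.00471), and Rest itself did not pass, with 0.11 (adjusted p = 0.178) and 0.06 (adjusted p = 0.535).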

How the data were processed

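Poly-A selected RNA of dissected midbrains was sequenced, and the authors deposited 1 table of 27360 rows and 9 columns on a log2 scale. The submitters' processing notes name FastQC 0.10.1, kallisto 0.46.1, DESeq2 and mm10. How the log2 values were made is not given in the sources used here, and the shrinkage of low values, which lowers small differences, was read from the values. Without counts, depth and counting intervals cannot be given.

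The filter kept 14029 named genes with 1 cpm or more on the linear scale in 3 or more libraries. The model had a mean per genotype over all 9 libraries and was fitted in limma (version 3.58.1, functions lmFit, contrasts.fit and eBayes, trend on) under R (version 4.3.3). Tests were two-sided, with Benjamini-Hochberg adjustment. On simulated data 199 of 200 genes changed by 1 on the log2 scale were recovered for the comparison with the floxed control, and 195 for that with the Cre control. Among unchanged genes there were 8 and 13 false calls in the same order. A change of 1 is larger than the difference of every tested channel gene except Kcne2 against the floxed control. Recovery of changes as small as most of those reported here was not simulated. Positions and transcript lengths are from GENCODE on GRCm38, where all 134 members were found.

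Named genes were those past the fold rule, the 2 with the highest mean log2 value in each class, those higher in cKO, the 12 with the smallest p against each control, and the partner and marker lists. Scn1a, Scn7a and the Cacnb4 promoter lie outside this rule. The members, classes and lists were chosen with earlier results of these data known. Some members and partner genes are not reported here by name.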

Additional observations from a re-analysis of the deposited data

How the results depend on the processing

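The count of lower channel genes against the floxed control was between 44 and 67 under every setting but the fold rule, which left 14. Against the floxed control, higher genes numbered 4 with no filter, 0 with the fold rule and 1 to 2 with single libraries left out, and the median was -0.15 with no filter and -0.35 with a stricter filter of 5 cpm. Against the Cre control, lower genes numbered 15 with no filter, 9 with only the 6 libraries compared, 1 with the fold rule and 3 to 39 with single libraries left out. Higher genes there numbered 0 with no filter, with the 6 libraries, and with the fold rule, and 0 to 1 with single libraries left out, and the median was -0.088 with no filter and -0.23 with the stricter filter. For the controls, lower genes numbered 0 to 1 with single libraries left out. The cause of these moves was not tested beyond the change in genes or libraries, and the shares of all genes under these settings are not given here.

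With the replicate block, the counts were 62 lower and 2 higher against the floxed control and 28 lower and 1 higher against the Cre control. Deviations of same-numbered libraries correlated between -0.027 and 0.26, and 7 of 9 libraries correlated best with their own number, a hint from the data and not from the design, so the block was not used in the results above. Of 49 named genes, 37 were called against the floxed control, 28 of them under all alternatives, and 22 against the Cre control, 2 of them (Kcna4 and Cacna1e) under all. With only the 6 libraries compared, the Cre control calls of Cacna1b, Cacna1d, Cacna2d1, Cacnb1, Cacnb3, Cacng2, Kcnab1, Kcnc1, Kcnh7, Kcnj12, Kcnj3, Kcnk9, Fgf13, Hcn3 and Notch3 were lost, and those of Cacna2d1, Cacnb1, Cacnb3, Kcnab1, Kcnc1, Kcnj12, Fgf13 and Hcn3 with no filter too. Cacna2d1 was also lost without the trend, and the floxed control calls of Scn2b and Kcnmb4 with the 6 libraries or no filter. The Cre control calls of Dcx, Stmn2, Snap25, Sox2, Vim, Ccnb1, Cntnap2 and Hba-a1 were lost with the 6 libraries too. With no filter, those of Dcx, Stmn2, Ccnb1 and Hba-a1 were lost, as were the floxed control calls of Hcn2, Hcn4, Elavl4, Col1a2 and Hbb-bt.

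Directions turned only for differences that were not called. With single libraries left out, log2 differences ran, against the floxed control, Kcng1 from -0.028 to 0.022 and Kcnk2 from -0.092 to 0.0059. They ran, against the Cre control, Kcne2 from -0.60 to 0.19, Kcnj13 from -0.21 to 0.064, Kcnmb4 from -0.057 to 0.035, Kcnab2 from -0.026 to 0.055, Kcng1 from -0.029 to 0.043, Kcnk2 from -0.067 to 0.031 and Kcnj10 from -0.0013 to 0.13. They ran, between the controls, Cacnb4 from -0.12 to 0.030, Kcng1 from -0.041 to 0.030, Kcnj8 from -0.01 to 0.11, Scn2b from -0.041 to 0.019, Scn8a from -0.061 to 0.047, Cacna1c from -0.067 to 0.13, Kcnk2 from -0.043 to 0.008, Kcna6 from -0.24 to 0.0021 and Kcnd3 from -0.097 to 0.013. Kcng1 also turned to -0.014 against the floxed control with libraries centred on their medians or after quantile normalization, to 0.0053 against the Cre control after quantile normalization, and between the controls to -0.0041 and -0.019 in the same order.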
